A study of Mus musculus with 15 samples.

Results

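The early response of a mouse biliary epithelial line to 4-OH tamoxifen was examined 12 h after addition, by RNA-seq of 4 tamoxifen and 3 ethanol libraries. The members are the genes with a p-value in the authors' deposited table of that comparison, 15704 of the 24421 gene symbols listed. Of the rest, 8716 had a mean of 0 and 1, Snai2, had a fold without a p-value. The whole series holds 15 libraries, and its other comparison, at 24 h, used 4 ethanol and 4 tamoxifen libraries of its own. All groups share 1 established line from adult biliary ducts, the strain C57BL/6 and the genotype ITR-CreERT2;Klf5flox/flox. The control libraries at both times received EtOH, the solvent, and the treated libraries 4-OH Tamoxifen. Ethanol-treated cells thus carry the recombinase and the floxed alleles too. The effects of the drug, of recombinase activity and of Klf5 loss cannot be told apart in this design. The labels give the driver of the recombinase as ITR, do not name the floxed exons, and do not settle whether cells grew as structures in vitro or in vivo. Nothing in them ties the replicates to separate cultures, and the p-values therefore reflect a spread among libraries that may be technical.

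Klf5 encodes a zinc finger transcription factor of the Krüppel-like family, which bind GC-rich and CACCC sequences in promoters. It is known for its part in the growth and differentiation of lining epithelia such as that of the gut. Cholangiocytes, the epithelial cells of bile ducts, form a keratin-rich lining on a basement membrane and modify bile by ion and water transport. CreERT2 is a recombinase fused to a mutated estrogen receptor domain, which enters the nucleus when it binds 4-OH tamoxifen and then deletes sequence between loxP sites.

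No value per library was analysed here, so levels are given per group. The ethanol and tamoxifen levels below, in normalised read counts per library, are the pair of group means that return the mean over the 7 libraries and the fold in the authors' deposited table. The 95% interval of a ratio spans 1.96 standard errors (SE) on each side on the log2 scale, and a pair of values after a percentage of ethanol or a fold is that interval. A gene is called when its adjusted p is under 0.05 in the authors' deposited table, from their DESeq2 Wald test. Counts are not divided by transcript length, so levels are compared between groups and, apart from a rough reading of marker genes, not between genes.

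Klf5, the targeted gene, lies on chromosome 14 from 99298691 to 99315036 (GRCm38, forward strand). Its level was 652 normalised counts in ethanol and 266 in tamoxifen, 40.9% of the ethanol level (95% interval 29.9 to 56.0%). In the authors' deposited table the log2 fold was -1.29 with an SE of 0.23 and an adjusted p of 9.75e-06. That SE was 1.46 times the median of genes with a similar mean, which corresponds to a spread between libraries of about 20.4% of the level (coefficient of variation). Any reads from Klf5 exons outside the deleted part, or from cells that had not recombined, would be included in the tamoxifen level. Their part in it was not tested. Klf5 had the 31st smallest p of the called genes.

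The tissue label was compared with marker genes. Their means are not divided by transcript length, so high and low are rough terms across genes. Keratin transcripts of simple epithelia were abundant, with means in the authors' deposited table of 48237 counts for Krt18, 37434 for Krt8 and 23752 for Krt19. The duct markers Spp1, Anxa4 and Tspan8 had means of 25377, 19497 and 9679 counts in the authors' deposited table, and the duct transcription factor Sox9 of 742. Epcam (mean 15.7 counts) and the chloride channel gene Cftr (2.25), both usual duct markers, had low means in the authors' deposited table. Hepatocyte genes were mixed, with Alb at a mean of 3.68 counts but Apob at 11906, Trf at 8127 and Hnf4a at 7584 in the authors' deposited table. Fibroblast markers summed to 31.4 counts in ethanol and 30.02 in tamoxifen, with 9 of 12 at a mean of 0, Col1a1 making up most of the sum. Endothelial markers summed to 3.76 and 1.78 counts, with 6 of 10 at a mean of 0, and immune markers to 78.5 and 81.3, mostly Cd68.

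The response at 12 h consisted mostly of falls. Of 13044 genes with an adjusted p, 123 were called (0.943%), 95 lower (0.728%) and 28 higher (0.215%) in tamoxifen. The falls were also larger, with 35 at 2-fold or more and a median log2 fold of -0.88, against 7 and a median of 0.71 among the rises. Genes that fell held 1.80% of all normalised counts in ethanol and 1.15% in tamoxifen, and those that rose 0.182% and 0.296%. The median log2 fold of all genes with a p was -0.0053 and 49.0% had a positive fold, a centre that the authors' scaling of the libraries sets near 0. Without adjustment, 769 genes had a p under 0.05 (4.90% of 15704), 459 lower (2.92%) and 310 higher (1.97%). These shares of all genes are the background for the counts in each gene list below. The lists were chosen with earlier results of these data known, so such counts are descriptions. The calls rest on a normal reference for the Wald score. With a t distribution of 5 degrees of freedom in its place, 0 genes were called and 328 had an unadjusted p under 0.05. Even Kcnu1, the call with the smallest p, had an adjusted p of 0.784 with that distribution. The count of 0 therefore does not show which calls are weak, and whether 5 degrees of freedom suit these errors was not tested. The plot of fold against mean count shows the called genes spread over the whole range of expression above about 10 counts.

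**Figure D1:**
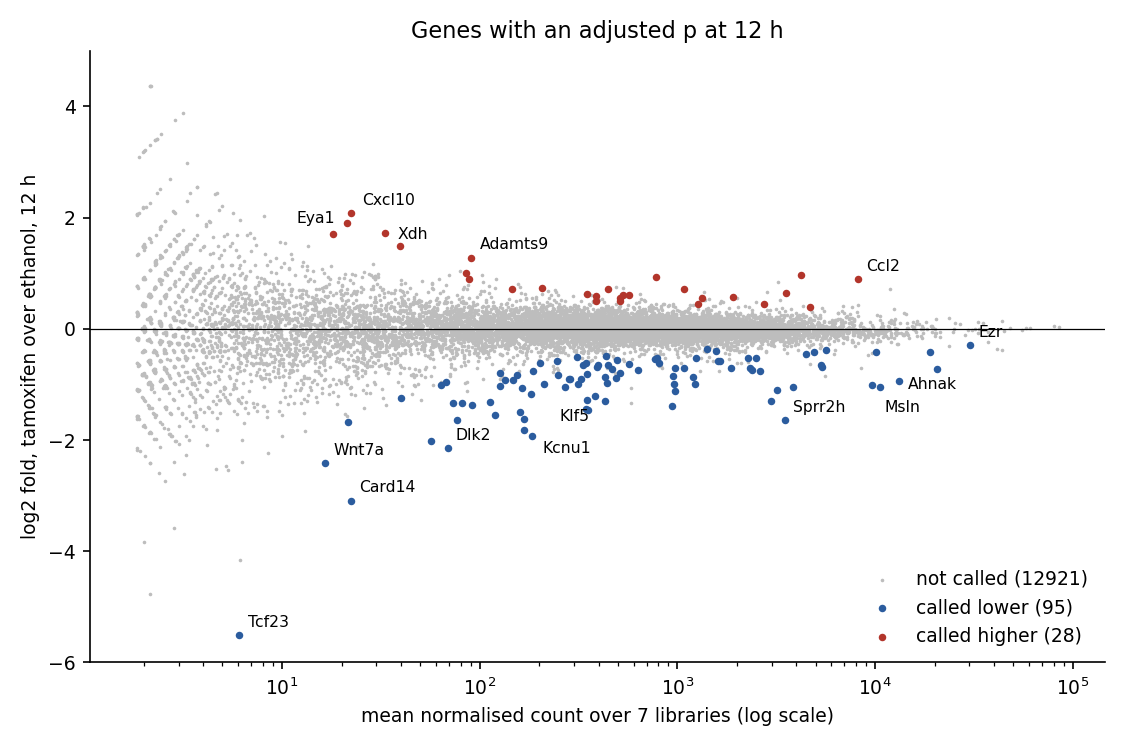
Log2 fold of tamoxifen over ethanol (y axis) against the mean normalised count over 7 libraries (x axis, log scale) for the 13044 genes with an adjusted p at 12 h. Grey points were not called, blue points were called lower (95) and red points higher (28), and most blue points lie deeper below 0 than the red points lie above it.

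What could be called depended on the error, which was large at this time. For genes with means of 100 to 500 counts the median SE was 0.18 and the smallest fold that could reach the threshold at that error was 1.56. For genes of 10 to 50 counts that fold was 2.84, and for genes of 5000 or more it was 1.37. The SE implies a spread between libraries of 15.2% at 100 to 500 counts and 11.8% at 5000 or more. In the 24 h libraries the corresponding spreads were 7.88% and 4.63%. The median SE at 12 h was 1.77 and 2.69 times that at 24 h in these ranges. The SE also depends on the number of libraries, 3 ethanol and 4 tamoxifen at 12 h against 4 and 4 at 24 h. The normalised counts summed to 13.9 M per library at 12 h and to 11.8 M at 24 h. The part of depth in the larger error at 12 h was not tested. Of the calls, 41 falls and 6 rises had means of 100 to 500 counts, 30 falls and 9 rises had 1000 or more, and 5 falls and 5 rises had under 50. A change under about 1.4-fold was thus not detectable for most genes at 12 h.

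**Figure D2:**
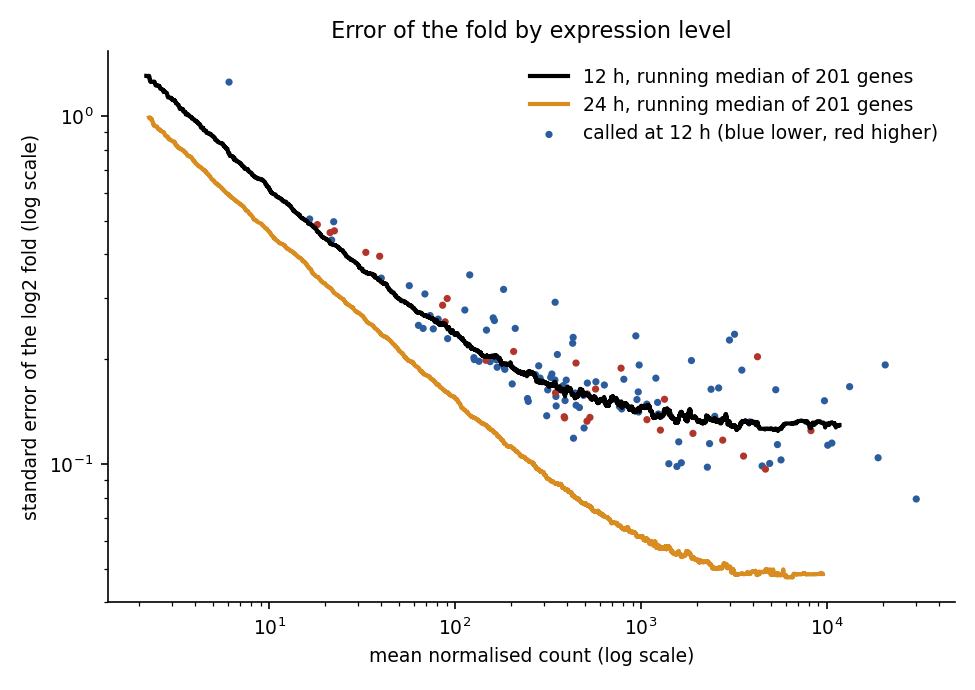
Standard error of the log2 fold (y axis, log scale) against the mean normalised count (x axis, log scale), with lines for the running median of 201 genes at 12 h (black) and 24 h (orange) and points for the genes called at 12 h (blue lower, red higher). The 12 h line lies above the 24 h line throughout, 1.36-fold at low means and 2.69-fold at 5000 counts or more.

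Of the called genes, 9 had an SE over 1.5 times that of genes with a similar mean in the authors' deposited table, so their libraries were more scattered than usual. They included Plaur (1.83 times), Anxa8 (1.71), Suox (1.69), Aldh1a1 (1.65), Mmp13 (1.63), Tcf23 (1.597), Ppp1r1b (1.59) and Sprr1a (1.51). Tcf23, a basic helix-loop-helix factor, had the deepest fold of all calls, from 13.8 counts in ethanol to 0.302 in tamoxifen. Its level in tamoxifen amounts to about 1 read over the group, and its ratio to ethanol had a 95% interval from 0.399 to 12.0%.

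Promoter sequences of the called genes were searched for 5 short motifs. RefSeq promoters (GRCm38.p6, 250 bases before to 50 after the first listed start) were found for 85 of the 123 called genes and 11543 of all genes with a p, and both strands were read. The letters TGANTCA include TGACTCA and TGAGTCA, the usual binding sites of AP-1 factors such as Fos and Jun. They also include TGATTCA and TGAATCA, which are not those sites, and the forms were not counted apart. The motif TGANTCA occurred in 17 of 85 promoters of called genes (20%) and in 5.66% of all promoters. The share was 13 of 68 (19.1%) for genes that fell and 4 of 17 (23.5%) for genes that rose. This motif is the one of the 5 whose share differed most from that of all promoters, and was singled out after the counts were seen. Promoters of 4 called genes are shown to let its position be read, with TGANTCA matches in capitals and all sequences given 5′ to 3′ in the direction of the gene. Emp1 (chr6:135362681-135362980, forward strand) encodes a membrane protein of epithelia and fell, with matches that begin 145 and 25 bases before the start. Its match at 25 bases is TGATTCA. Sprr1a (chr3:92485832-92486131, reverse strand), a cornified envelope precursor, fell and has matches at 146 and 116 bases before it. Plaur (chr7:24462233-24462532, forward strand), the urokinase receptor, fell and has 1 match at 69 bases. Cxcl10 (chr5:92348840-92349139, reverse strand), a chemokine, rose and has 1 match at 74 bases.
Emp1: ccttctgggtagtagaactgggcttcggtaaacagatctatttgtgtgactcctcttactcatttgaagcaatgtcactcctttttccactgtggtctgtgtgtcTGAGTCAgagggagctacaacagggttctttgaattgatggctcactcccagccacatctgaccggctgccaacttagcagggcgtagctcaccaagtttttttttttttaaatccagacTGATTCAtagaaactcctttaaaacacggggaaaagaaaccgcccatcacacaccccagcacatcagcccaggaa
Sprr1a: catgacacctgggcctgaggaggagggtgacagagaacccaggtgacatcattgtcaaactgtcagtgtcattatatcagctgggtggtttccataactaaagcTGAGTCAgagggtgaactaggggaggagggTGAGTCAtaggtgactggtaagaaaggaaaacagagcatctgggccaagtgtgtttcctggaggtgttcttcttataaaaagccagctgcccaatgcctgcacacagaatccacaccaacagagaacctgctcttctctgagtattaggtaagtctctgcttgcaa
Plaur: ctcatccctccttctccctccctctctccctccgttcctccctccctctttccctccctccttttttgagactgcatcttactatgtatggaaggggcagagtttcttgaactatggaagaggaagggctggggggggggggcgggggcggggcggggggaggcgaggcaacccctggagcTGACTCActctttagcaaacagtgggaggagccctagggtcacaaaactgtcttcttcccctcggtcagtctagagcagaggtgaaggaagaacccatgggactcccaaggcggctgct
Cxcl10: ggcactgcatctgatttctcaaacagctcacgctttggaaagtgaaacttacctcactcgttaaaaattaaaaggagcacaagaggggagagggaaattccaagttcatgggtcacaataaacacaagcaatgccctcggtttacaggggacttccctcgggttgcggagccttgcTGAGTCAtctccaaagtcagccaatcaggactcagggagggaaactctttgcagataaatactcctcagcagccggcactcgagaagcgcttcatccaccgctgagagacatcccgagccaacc
The same letters were found in the promoters of Sprr2h, Il5ra, Clca3b, Aldh1a1, Tspan15, Mcu, Ms4a4b, Ezr, Mmp13 and 1 predicted gene among the falls, and of Zfp36l1, Map2k6 and Rfx5 among the rises. In Clca3b, Zfp36l1 and Map2k6 the only match is TGATTCA, and in Ms4a4b it is TGAATCA. The letters CACCC, which Krüppel-like factors bind, occurred in 72.1% of promoters of genes that fell, 47.1% of those that rose (8 of 17) and 62.6% of all. CCNCNCCC, another GC-rich motif of this family, occurred in 72.1%, 76.5% and 66.9%, and GGGCGG, the Sp factor box, in 57.4%, 52.9% and 60.6%. GGAATG, the TEAD motif, was found in 13 of 68 promoters of genes that fell (19.1%), 0 of 17 of those that rose, and 12.5% of all. GGGCGG and CCNCNCCC can overlap, and median GC content was 60.3% for falls, 55.7% for rises and 60.3% for all promoters. A match is a run of letters in a window, and binding was not measured.

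Of the transcription regulators among the calls, 6 named here fell besides Klf5 and 3 rose. Pparg, the adipogenic nuclear receptor, went from 579 to 316 counts (54.7%, 95% interval 40.4 to 73.9%). Tead4, a DNA-binding partner of YAP, went from 302 to 203 counts (67.1%, 54.4 to 82.8%), and Tle4, a corepressor of the Groucho family, from 501 to 318 (63.5%, 50.1 to 80.4%). Tet2, which oxidises 5-methylcytosine, stood at 61.2% of ethanol (49.98 to 74.8%) and the zinc finger gene Zfp697 at 61.3% (47.2 to 79.6%). Tcf23, above, is the other fall. In the other direction, Eya1, a transcriptional coactivator, went from 8.30 to 31.0 counts, 3.73-fold (1.99 to 6.99). Irf1, an interferon regulatory factor, rose 1.47-fold (1.19 to 1.81) and Rfx5, an activator of MHC class II genes, 1.47-fold (1.19 to 1.83). Of 16 Krüppel-like factors with a p, Klf5 was the only call, and Klf16 had a log2 fold of -0.45 (SE 0.14, adjusted p = 0.0914) in the authors' deposited table.

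Several genes of the basement membrane and of adhesion fell. Lamb3, a laminin chain of the epithelial basement membrane, went from 3407 to 2021 counts (59.3%, 47.4 to 74.3%; adjusted p = 0.00116 in the authors' deposited table). The 17 genes of the basement membrane and hemidesmosome list had a median log2 fold of -0.07. Among 12 integrin chains, Itgb6, whose product activates latent TGF-beta, fell from 439 to 222 counts (50.4%, 40.4 to 62.9%; adjusted p = 8.95e-07 in the authors' deposited table). The integrin ligand nephronectin (Npnt) fell to 61.2% (52.4 to 71.5%), the matrix protein fibulin-2 (Fbln2) to 63.9% (51.1 to 79.7%) and the heparan sulfate proteoglycan Sdc1 to 77.0% (66.9 to 88.5%). Jam2, a junctional adhesion molecule, fell to 39.9% (28.0 to 56.8%), and Colgalt1, which glycosylates collagen, to 72.8% (63.7 to 83.3%). The 22 tight junction genes and the 16 adherens junction and desmosome genes with a p had 0 called in the authors' DESeq2 test, with 1 and 0 at an unadjusted p under 0.05.

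Secreted proteases and a protease receptor moved in both directions. Plaur, the urokinase receptor, fell from 4582 to 2135 counts, 46.6% of ethanol (33.8 to 64.2%). Plat, tissue plasminogen activator, fell from 2749 to 1918 counts (69.8%, 61.1 to 79.7%). The collagenase Mmp13 fell from 267 to 119 counts (44.5%, 28.9 to 68.5%), and the secreted protease Adamts9 rose from 49.9 to 121 (2.43-fold, 1.62 to 3.65). Adamts15 went from 48.4 to 20.4 counts and was not called (adjusted p = 0.0861 in the authors' deposited table). Of 20 genes of the protease and inhibitor list with a p, 3 fell and 1 rose (all genes: 0.728% called lower and 0.215% higher). In the TGF-beta list, Smad3 and Tgfb3 had positive folds without a call (adjusted p = 0.401 and 0.375 in the authors' deposited table).

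The keratin and cornified envelope list had the lowest median of the lists with 10 or more members, -0.30 on the log2 scale. Of its 17 members with a p, 4 fell (all genes: 0.728% called lower). Sprr2h, a small proline-rich protein, went from 5701 to 1824 counts, 32.0% of ethanol (24.8 to 41.2%; adjusted p = 3.13e-15 in the authors' deposited table). Sprr1a, a related gene on the same chromosome, went from 26563 to 16088 counts (60.6%, 46.6 to 78.7%). Krt80 fell from 141 to 54.1 counts (38.5%, 28.2 to 52.5%) and Krt7, a duct keratin, from 681 to 390 (57.3%, 45.4 to 72.3%). The adjusted p of Krt19 was 0.730 in the authors' deposited table, where its log2 fold was -0.30, and Krt8 and Krt18 stood at 96.1% and 101% of ethanol. Krt7 was also the 1 called gene of the 23 biliary identity genes, whose median log2 fold was 0.05. Elf3, an epithelial transcription factor, had a log2 fold of -0.50 without a call (adjusted p = 0.0966 in the authors' deposited table).

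Several abundant transcripts of cell surface and cortical proteins fell as well. Msln, the surface glycoprotein mesothelin, went from 15074 to 7291 counts, 48.4% of ethanol (41.4 to 56.5%; adjusted p = 3.89e-16 in the authors' deposited table). Ahnak, a giant scaffold protein, fell from 18196 to 9526 counts (52.4%, 41.7 to 65.7%). The calcium-binding proteins Anxa8, Anxa3 and S100a16 fell too, Anxa8 to 40.8% (30.01 to 55.6%), Anxa3 to 75.1% (65.2 to 86.5%) and S100a16 to 69.2% (57.3 to 83.6%). Emp1, whose promoter is shown above, fell from 6899 to 4305 counts (62.4%, 53.5 to 72.8%). Of 21 genes of actin nucleation and bundling, Cobl, an actin nucleator, fell from 99.5 to 24.7 counts (24.8%, 15.9 to 38.6%) and Ezr, which links actin to the membrane, from 33751 to 27571. The fall of Ezr was the smallest of all calls, to 81.7% (73.4 to 91.0%). Its SE of 0.08 in the authors' deposited table was 0.607 times that of genes with a similar mean. Mprip, a regulator of myosin phosphatase, fell to 75.1% (64.4 to 87.6%) and Lmo7 to 69.5% (57.7 to 83.8%).

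Sugar-chain enzymes and transporters included some of the smallest p-values. Kcnu1, a pore-forming potassium channel subunit, had the smallest p of all, with a fall from 318 to 83.3 counts to 26.2% of ethanol (20.3 to 33.9%; adjusted p = 2.86e-20 in the authors' deposited table). Car2, carbonic anhydrase, fell from 112 to 44.3 counts (39.4%, 27.4 to 56.7%). Both belong to the ion, water and bile acid transport list, with a median log2 fold of -0.18. In it 2 of 19 genes fell and 0 rose (all genes: 0.728% called lower and 0.215% higher). Mgat3, which adds the bisecting residue of N-glycans, fell from 557 to 203 counts (36.4%, 27.5 to 48.2%), and Gcnt3, which branches mucin O-glycans, from 254 to 89.8 (35.3%, 24.7 to 50.5%). The 26 glycosyltransferases with a p had a median log2 fold of -0.01. Clca3b, of the secreted chloride channel accessory family, fell to 50.5% (40.6 to 62.8%), and Vnn1, the pantetheinase vanin-1, to 50.8% (40.9 to 63.1%).

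**Figure D3:**
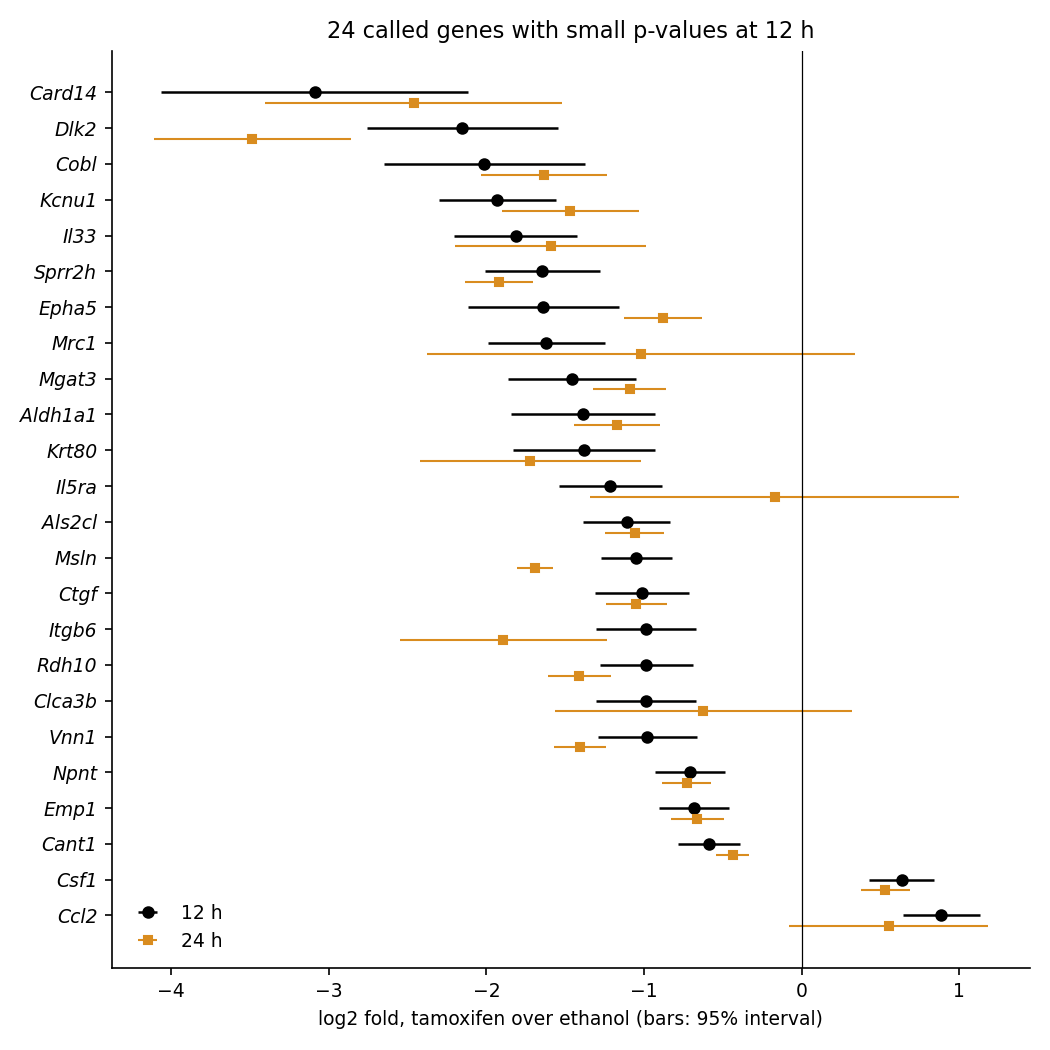
Log2 fold of tamoxifen over ethanol (x axis) with its 95% interval (bars) for 24 called genes with small p-values, at 12 h (black circles) and, in separate libraries, at 24 h (orange squares). All but Csf1 and Ccl2 lie below 0 at 12 h, and the intervals of Mrc1, Il5ra, Clca3b and Ccl2 reach 0 at 24 h.

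Single ligands and receptors of several signalling pathways fell. Dlk2, a membrane protein related to Notch ligands, went from 124 to 27.8 counts (22.5%, 14.8 to 34.2%) and was the 1 call among 19 Notch pathway genes. The Wnt ligands Wnt7a and Wnt10a went from 30.8 to 5.77 counts (18.7%, 9.42 to 37.2%) and from 663 to 361 counts (54.5%, 44.0 to 67.4%), 2 falls and 0 rises among 23 genes of the pathway. Ctgf, a matrix-associated growth factor and standard YAP target, went from 13615 to 6753 counts (49.6%, 40.4 to 61.0%). The other 21 YAP targets with a p were not called and the list median was 0.00. Of all 22, Ctgf included, 4 were lower and 3 higher at an unadjusted p under 0.05 (all genes: 2.92% and 1.97%). Receptors that fell were the ephrin receptor Epha5 (from 125 to 40.1 counts, 32.1%, 23.0 to 44.8%), the protease-activated receptor F2rl1 (55.6%, 45.2 to 68.5%) and the adhesion receptor Adgrl3 (47.7%, 33.6 to 67.7%). Sema3c, a secreted semaphorin, fell to 54.5% (42.9 to 69.3%). Of 2 platelet-derived growth factors called, Pdgfc fell to 69.4% (57.1 to 84.4%) and Pdgfb rose 1.36-fold (1.15 to 1.61). Dusp1, a phosphatase that ends MAP kinase signals, fell to 61.5% (47.0 to 80.5%), whereas Map2k6, an upstream kinase of p38, rose 1.41-fold (1.18 to 1.69). Fos had a log2 fold of -0.62 without a call (adjusted p = 0.136 in the authors' deposited table), and the 15 EGF receptor family genes with a p had 0 called in the authors' DESeq2 test, with Erbb2 and Btc lower at an unadjusted p under 0.05.

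The chemokine Ccl2 and the growth factor Csf1 were among the rises with the smallest p. Of 22 chemokines and cytokines with a p, 4 rose and 1 fell, on a list chosen with earlier results known. Among all genes with an adjusted p, 0.215% were called higher and 0.728% lower. Ccl2, which attracts monocytes, rose from 5523 to 10212 counts, 1.85-fold (1.56 to 2.19; adjusted p = 1.46e-09 in the authors' deposited table). Its neighbour Ccl7, 8.26 kb away on chromosome 11, rose from 107 to 176 counts (1.64-fold, 1.25 to 2.15). Csf1, the macrophage growth factor, rose from 2705 to 4202 counts (1.55-fold, 1.347 to 1.79), and Cxcl10, an interferon-inducible chemokine, from 7.91 to 33.3 (4.21-fold, 2.23 to 7.96). Il33, an alarmin of barrier epithelia, went the other way, from 282 to 80.4 counts (28.5%, 21.7 to 37.3%; adjusted p = 3.89e-16 in the authors' deposited table). Further falls were Card14, a scaffold of NF-kB signalling in keratinocytes, from 44.9 to 5.27 counts (11.8%, 5.98 to 23.1%), the IL-5 receptor chain Il5ra from 565 to 244 (43.1%, 34.3 to 54.2%) and the mannose receptor Mrc1 from 274 to 89.1 (32.5%, 25.1 to 42.1%).

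Interferon and acute phase lists had positive medians with few calls. The 23 interferon response genes with a p had a median log2 fold of 0.32 (0.18 for the 11 with a mean of at least 50) and 1 call, Irf1. Igtp, an interferon-inducible GTPase, rose from 19.3 to 54.3 counts (2.82-fold, 1.65 to 4.83), and Serpinb9, a granzyme inhibitor, 1.42-fold (1.18 to 1.71). The 15 acute phase and complement genes had the highest median of the lists with 10 or more members, 0.40, with haptoglobin (Hp) called at 1.87-fold (1.32 to 2.65). Complement C3 went from 2218 to 3952 counts and missed the threshold (adjusted p = 0.0511 in the authors' deposited table). Masp1, a protease of the lectin pathway of complement, rose 1.54-fold (1.24 to 1.92). The 20 NF-kB regulators and targets had 0 called in the authors' DESeq2 test and 3 at an unadjusted p under 0.05, all higher. Hepatocyte markers, a class that shares plasma proteins with this list, summed to 24983 counts in ethanol and 33142 in tamoxifen with 0 of 13 called and 2 higher at an unadjusted p under 0.05. Apob makes up most of that difference, with a log2 fold of 0.72 and an SE of 0.51 in the authors' deposited table, and the part of such cells in the rises was not tested. In bulk RNA, fewer cells of a type and less RNA per cell cannot be told apart.

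Metabolic genes moved in both directions. In the retinoid list, 2 of 18 genes fell and 1 rose (all genes: 0.728% called lower and 0.215% higher). Rdh10, which oxidises retinol to retinal, went from 1713 to 864 counts (50.5%, 41.2 to 61.9%) and Aldh1a1, which makes retinoic acid, from 1448 to 555 (38.3%, 27.9 to 52.6%). Bco1, which cleaves carotene to retinal, fell to 64.2% (50.8 to 81.2%), while the retinol transporter Stra6 rose 1.64-fold (1.26 to 2.13). Pdk4, an inhibitor of pyruvate oxidation, rose from 517 to 979 counts (1.90-fold, 1.47 to 2.45). G6pdx, the first enzyme of the pentose phosphate pathway, rose from 789 to 1292 (1.64-fold, 1.36 to 1.96) and was the 1 call among 20 genes of that pathway and of NRF2 targets. Xdh, xanthine dehydrogenase, rose from 14.3 to 47.2 counts (3.30-fold, 1.90 to 5.73). The sulfur and sphingolipid enzymes included both directions. Papss2, which makes the sulfate donor, Degs1, a ceramide desaturase, and Smpdl3b, a lipid phosphodiesterase, rose 1.67-fold, 1.36-fold and 2.004-fold. Sulfite oxidase (Suox), the sulfotransferase Sult2b1 and sphingosine kinase (Sphk1) fell to 37.0%, 42.4% and 53.7%. The mitochondrial calcium uniporter Mcu and the glutamate carrier Slc25a22 fell to 67.3% and 71.5%, whereas 0 of 23 oxidative phosphorylation genes were called in the authors' DESeq2 test, with 0 at an unadjusted p under 0.05.

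Lists of 43 pathways and cell types were read in full, and they hold 766 genes with a p. At least 1 call was found in 25 lists, lower only in 16, higher only in 4 and both ways in 5. Of the 766 listed genes 41 were called, against 0.943% of all genes with an adjusted p. The lists were chosen with earlier results known, so a higher share in them is no result about the pathways. The 18 lists without a call held 320 memberships with a p, of which 14 had an unadjusted p under 0.05 (all genes: 4.90%). The estrogen receptor and its targets (15 genes), cholesterol and fatty acid synthesis (24), the unfolded protein response (20), G1/S and DNA replication (25) and cytosolic ribosomal proteins (25) had 0 called in the authors' DESeq2 test and 0 at an unadjusted p under 0.05. The 25 genes of G2 and mitosis and the 21 of the cilium had 0 called, with 1 each higher at that unadjusted level, and the 22 p53 targets 0 called, with 2 higher. Fkbp5, a co-chaperone of steroid receptors, was the 1 call among 20 clock and glucocorticoid genes and fell to 74.5% (65.0 to 85.4%). The plot of lists shows that most medians lie near 0 and that the called members stand at the edges of their lists.

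**Figure D4:**
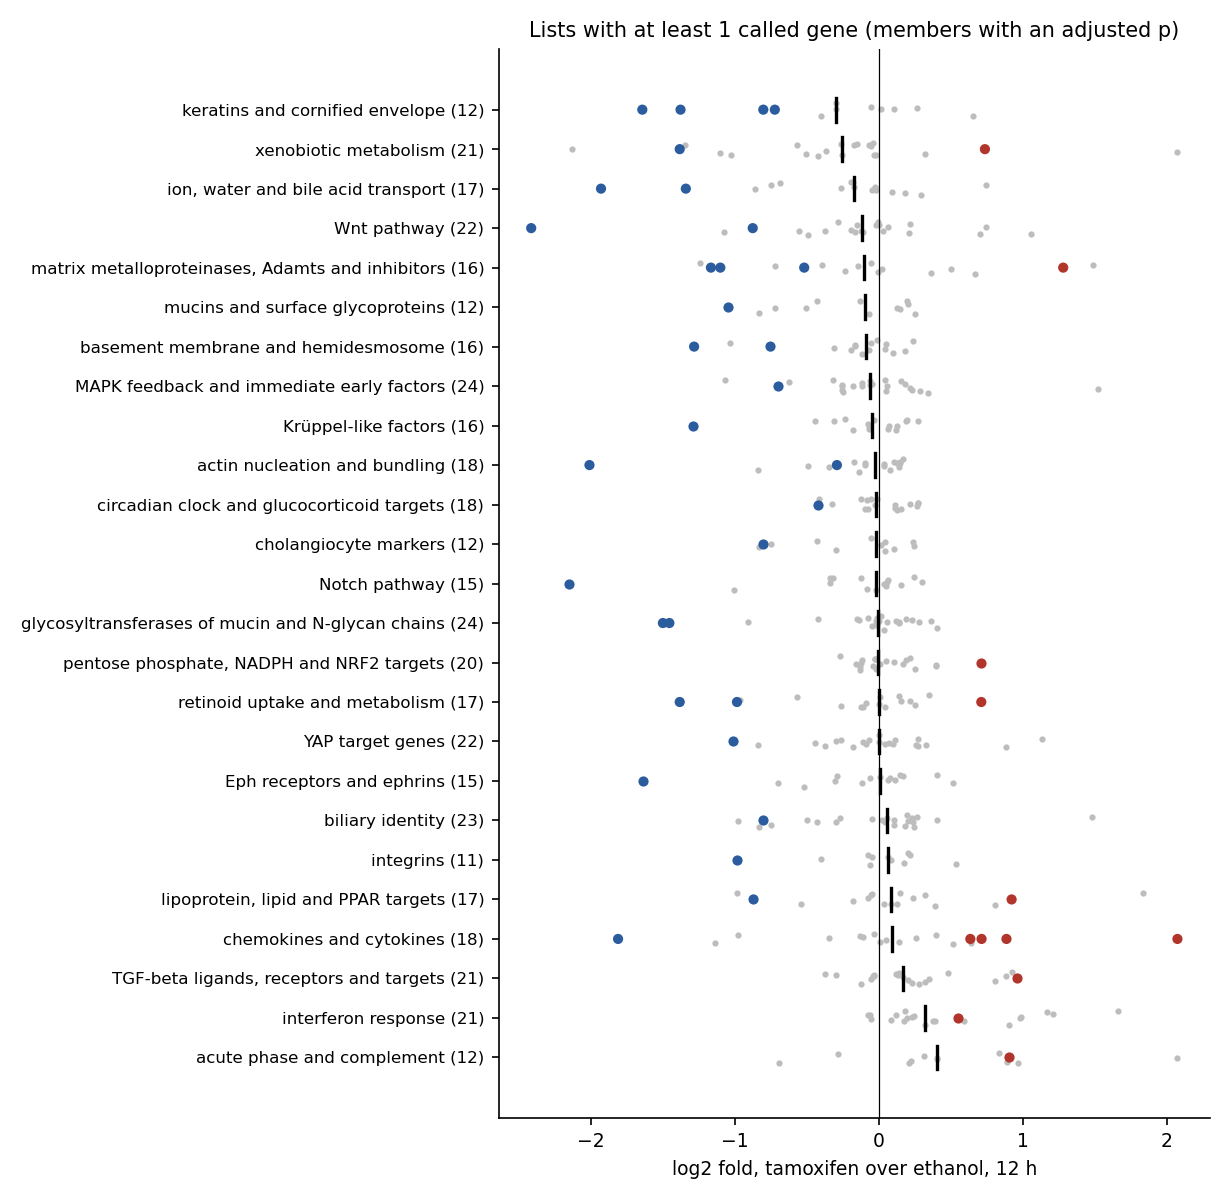
Log2 fold of tamoxifen over ethanol at 12 h (x axis) for the members with an adjusted p (their number in parentheses) of the 25 lists that hold a called gene. Blue points were called lower, red points higher and grey points not called, and the black bar is the median of the members plotted, lowest for keratins and highest for acute phase genes.

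The 5 called genes nearest the threshold were Hp, Smpdl3b, Papss2, Enpp3 and Rfx5, all rises, with adjusted p from 0.0453 to 0.0488 in the authors' deposited table. The 5 nearest outside the threshold were C3, Ripply1, Ppa1, Stambpl1 and Ifi47, with adjusted p from 0.0511 to 0.0530 in the authors' deposited table. Ifi47, an interferon-inducible GTPase, went from 44.8 to 88.1 counts, and Ripply1 from 34.2 to 11.5. Folds were positive in all 5 genes inside and in 2 of the 5 outside, C3 and Ifi47. With the adjustment made over all 15704 genes, the 5 genes inside and Dusp1, Dusp18, Gpr137b and Pdgfb lost their call, which left 114.

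The 12 h calls were then looked up in the 24 h libraries, which share no library with the 12 h ones. All 95 falls had a negative fold at 24 h, and 27 of 28 rises a positive one, against 68.2% of 11624 genes with the same sign at both times. At 24 h, 78 falls and 18 rises were called in the same direction (background 6.52% of 11648 genes lower and 5.90% higher) and 0 in the opposite one. The 1 exception in sign was Enpp3, with a log2 fold of -0.09 (SE 0.35) at 24 h in the authors' deposited table. The fold at 24 h had a median of 0.91 times the 12 h fold for falls and 0.66 times for rises, in genes that were chosen by their 12 h values. A larger fold at 24 h was found for 37 of 95 falls and 5 of 28 rises. The 27 genes not called at 24 h include Mrc1, Il5ra, Clca3b and Plat among the falls, and Ccl2, Ccl7, Cxcl10, Igtp, Xdh and Hp among the rises. For several of these the 24 h error was large, as for Mrc1, at -1.02 with an SE of 0.69, and Ccl2, at 0.55 with an SE of 0.32 in the authors' deposited table.

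Whether a fold differed between times was tested directly on 14981 genes with a p at both, and 2 passed an adjusted p under 0.05 (0.0134%). Msln fell further by 24 h, with a difference of -0.64 (SE 0.13, adjusted p = 0.00485). Serpine2, a serpin that inhibits thrombin and urokinase, was not called at 12 h (log2 fold -0.39, SE 0.14, adjusted p = 0.264 in the authors' deposited table) and stood at -1.27 at 24 h. Of the 123 calls, 22 had an unadjusted p under 0.05 for the difference. These genes were chosen by their 12 h values and the share among all 14981 genes is not given here. The count is therefore not read as change between the times. Of the 27 genes not called at 24 h, 0 passed the adjusted threshold for the difference. Some had an unadjusted p under 0.05, such as Enpp3, with a difference of -1.80 on the log2 scale (SE 0.60).

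**Figure D5:**
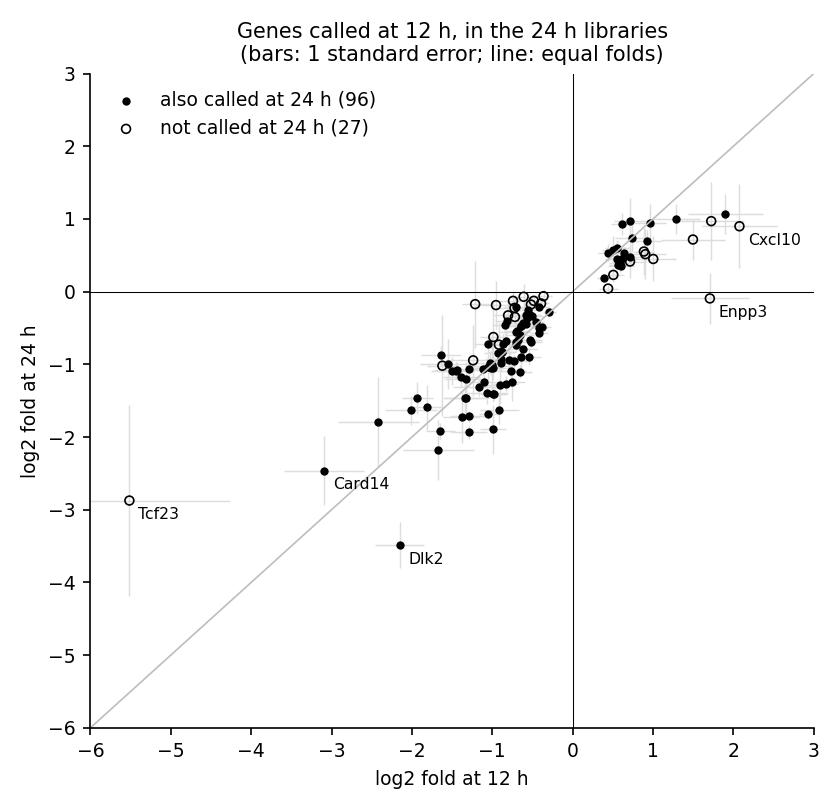
Log2 fold at 24 h (y axis) against that at 12 h (x axis) for the 123 genes called at 12 h, with bars of 1 standard error and a line of equal folds. Filled points were called at 24 h too (96) and open points were not (27), and only Enpp3 lies on the other side of 0.

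Positions and structure of the called genes were taken from GENCODE (GRCm38), which matched 92 of 95 falls and 27 of 28 rises by symbol. Their median exon length was 4618.5 bases for falls, 3721 for rises and 4368 for all genes with an adjusted p. Within 1 Mb there were 15 pairs of neighbouring calls. Ccl2 and Ccl7 rose together, while Krt80 and Krt7 (40.9 kb apart), Sprr2h and Sprr1a (96.6 kb) and Fbln2 and Wnt7a (91.4 kb) fell together. Pdgfb and Mgat3, 159 kb apart, moved in opposite directions. The library kit does not mark strand, and 12 called genes share over 10% of their exon bases with a gene on the opposite strand. These are 8.70% of matched falls and 14.8% of matched rises, against 11.3% of all matched genes with an adjusted p. The share was 55.9% for Zfp36l1, a decay factor of AU-rich messages that rose 1.48-fold, 26.8% for Rfx5, 23.1% for Arhgap27, 21.6% for Arhgef26 and 20.7% for Card14, and reads of the partners cannot be told apart there. Sprr2h, Sprr1a, Ms4a4b, Clca3b, Igtp and Serpinb9 have close relatives in the genome, so their counts are uncertain to the extent that reads were split among copies.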

How the data were processed

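Total RNA was extracted with Trizol and made into libraries with the TruSeq RNA kit v2, per the labels' protocols. HISAT2, mm10 and DESeq2 are named by the authors, per the submitters' processing notes, with no version or role. A counting tool, annotation or design formula is not given in the sources used here. Per the file headers, the authors' table gives the log2 fold with its standard error, the Wald score, and the raw and adjusted p-value, the latter blank for genes with a mean below 1.84. Its signal value is the authors' deposited mean of normalised read counts over the libraries of a time.

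Fold direction was checked on genes with a single read, whose 7 distinct means split into 3 with negative and 4 with positive folds. Size factors read from them ran from 0.955 to 1.05. The analysis planned for counts per library was replaced by the authors' deposited DESeq2 results, since the table holds comparison columns. Group levels, intervals and the running median of the error over 201 genes were computed in Python 3.11.15 (numpy 2.4.6, pandas 2.3.3, scipy 1.17.1, matplotlib 3.10.9). The ethanol levels, the spread between libraries and the calls were tested on simulated data, in which the fit was given the true spread. How often the intervals hold the true ratio was not tested. The difference between times was the difference of the folds divided by the square root of their summed variances, with Benjamini-Hochberg adjustment. Gene annotation was GENCODE M21.

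Groups came from the sample titles. The gene lists, the motifs and the rule for named genes were chosen with earlier results of these data known, so list counts and medians are descriptions. The rule names Klf5, any called gene, called or near-threshold list members, up to 3 list members at an unadjusted p under 0.05, 5 genes on each side of the threshold, and marker genes. Symbols of predicted genes (3 calls) were counted and not named, and some results are not reported here. Alternatives changed the adjustment, the reference distribution, the error, the centre, the minimum fold and the threshold. Intervals cover only what the standard errors hold.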

Additional observations from a re-analysis of the deposited data

Results flagged for a closer look

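The log2 fold of Msln differed between the 24 h and the 12 h comparison by -0.64 in the test of the difference, and that of Serpine2 by -0.87. The libraries and controls of the times were separate, so time and other differences between those libraries cannot be told apart.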

How the results depend on the processing

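The counts of called genes depended most on how the error was read. With a t distribution of 5 degrees of freedom in place of the normal, 0 genes were called, 0 lower and 0 higher, and 328 genes had an unadjusted p under 0.05. That setting left even Kcnu1, with the smallest p of all, at an adjusted p of 0.784, so it does not grade the calls. Against an absolute log2 fold of 0.25, 49 genes were called, 43 lower and 6 higher, which raised the share of falls from 77.2% to 87.8%. At an adjusted p under 0.01 there were 79 calls, 66 lower and 13 higher. With each error raised to that of genes of like mean, 17 of the rises and 82 of the falls were left. Adjustment over other sets of genes, recentring or a threshold of 0.1 gave 105 to 157 calls. These settings leave the folds as they are or shift them all alike, so they do not test the direction of a call. Without a multiple-test adjustment at 24 h, 103 of the 123 calls were seen there, against 96. List medians moved by less than the median SE of their members' folds when members were limited to means of at least 50 or folds were recentred. That SE describes single genes and not the list. With the limit of 50, the interferon median went from 0.32 to 0.18 and the protease median from -0.19 to -0.06. No paired analysis was possible because the table holds comparison columns and no value per library. For the same reason leaving out replicates, TMM scaling and count filters were not run. At the 12 h error, genes of 10 to 50 counts had a smallest callable change of 2.84-fold, and the part of depth in this was not tested.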
